A study of Mus musculus with 4 samples.

Results

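The most deeply read CpGs of the hippocampus were examined, those with 100 or more reads in both hippocampus libraries after the ribosomal precursor gene Rn45s on chromosome 17 had been left out. They were 3352 of the 2226271 CpG positions measured, each strand of a CpG counted apart, or 0.151%. They were selected on read number, so their depth is a description and is not tested. They took 4.57% of all CpG reads in E3 and 4.68% in CT. Members within 500 bases of each other were merged, which gave 849 loci, 278 of them with 1 member, 571 with 2 or more, and 69 with 10 or more.

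The study asked whether estriol (E3), an estrogen of pregnancy, given before birth leaves a mark on the DNA of the brain. Pregnant CD-1 mice, an outbred stock, carried a pump with 50 µl of E3 at 0.46 mg/ml in DMSO, or DMSO alone (CT), for 7 days from gestation day 9, and DNA of their wild type female offspring was read by Methyl-MiniSeq, in which DNA cut with TaqαI (TCGA) and MspI (CCGG) is bisulfite-treated and sequenced at the fragments released. The labels give the hippocampus donors an age of 8 weeks, while the study's text sets its brain expression measurements in offspring at a later age, and which holds for these libraries is not settled by the sources used here. No source used here says whether 1 mouse or several went into a library. Each condition had 1 hippocampus library, so every p below compares 2 libraries and not the conditions, and every interval covers counting error alone. The tissue label could not be checked, since these DNA values hold no cell type marker.

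A large share of the mouse genome consists of repeated DNA. SINE B1 elements are short copies derived from the 7SL RNA of the signal recognition particle, LINE-1 elements are long and code for the proteins that copy them, and satellites are tandem arrays around centromeres. In most somatic tissues these repeats carry dense CpG methylation, which helps to keep them silent, and reads from many near-identical copies can be placed at a single reference copy.

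The reference sequences below are shown because the results turn on them. All are from GRCm38 (mm10), plus strand, 5′ to 3′. In the B1-like unit (chr11:114667514-114667683) capitals mark every CpG. In the satellite-like stretches (chr2:98662484-98662717 and chr9:3001348-3001581) they mark the CpG with the smallest p for a rise and the satellite CpG with the largest called fall. In the LINE-1-like stretch (chr3:120717619-120717818), the locus with the largest rise (chr8:15519821-15520020), the Mid1 intron (chrX:169986865-169987064) and the mitochondrial copy (chr1:24612877-24613076) they mark the member CpGs.
B1-like unit: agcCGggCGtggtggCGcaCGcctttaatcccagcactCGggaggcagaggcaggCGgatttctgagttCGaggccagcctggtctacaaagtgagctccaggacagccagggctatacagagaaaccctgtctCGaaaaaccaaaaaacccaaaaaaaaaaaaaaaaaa
LINE-1-like: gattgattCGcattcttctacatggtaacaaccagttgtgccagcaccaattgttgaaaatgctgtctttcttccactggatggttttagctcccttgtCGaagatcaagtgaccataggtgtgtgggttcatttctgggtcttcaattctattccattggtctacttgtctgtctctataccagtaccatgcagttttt
satellite-like, chromosome 2: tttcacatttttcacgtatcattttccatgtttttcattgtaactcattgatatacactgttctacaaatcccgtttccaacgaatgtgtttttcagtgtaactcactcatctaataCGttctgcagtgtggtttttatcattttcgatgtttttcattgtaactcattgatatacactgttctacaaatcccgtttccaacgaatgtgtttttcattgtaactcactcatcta
satellite-like, chromosome 9: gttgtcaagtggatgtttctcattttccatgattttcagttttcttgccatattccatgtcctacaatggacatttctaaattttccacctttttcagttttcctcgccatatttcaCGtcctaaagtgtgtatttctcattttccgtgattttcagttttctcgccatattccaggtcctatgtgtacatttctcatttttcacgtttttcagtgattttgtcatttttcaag
chromosome 8 rise: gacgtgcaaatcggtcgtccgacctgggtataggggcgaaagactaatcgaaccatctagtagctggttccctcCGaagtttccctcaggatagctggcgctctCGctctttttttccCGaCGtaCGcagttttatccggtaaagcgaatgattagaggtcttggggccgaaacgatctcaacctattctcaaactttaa
Mid1 intron: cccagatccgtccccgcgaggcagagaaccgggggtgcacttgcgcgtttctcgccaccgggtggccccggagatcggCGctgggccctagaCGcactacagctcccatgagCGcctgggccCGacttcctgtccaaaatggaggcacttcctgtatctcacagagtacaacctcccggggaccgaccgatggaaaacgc
mitochondrial copy: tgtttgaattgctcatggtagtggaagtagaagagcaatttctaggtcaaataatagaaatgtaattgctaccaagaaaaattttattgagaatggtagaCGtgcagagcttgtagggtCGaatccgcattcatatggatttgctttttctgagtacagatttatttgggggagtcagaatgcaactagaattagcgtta

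The median member was read 710 times in E3 (quartiles 463 and 1158) and 204 times in CT (quartiles 140 and 317), against medians of 27 and 9 over all CpG positions. No member passed 7986 reads in E3 or 7973 in CT, and whether the upstream processing set a ceiling on reads was not tested. Around the threshold, the 5 members just inside had 100 reads in CT and 172 to 563 in E3, with levels of 3.02% to 97.1% in E3 and 0% to 100% in CT. The 5 positions just outside had 99 reads in CT and 106 to 427 in E3, with levels of 53.0% to 98.9% in E3 and 60.6% to 100% in CT.

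The members were repeated DNA for the larger part. The reference is soft-masked, the mark of known repeats, over a mean of 86.3% of the window around a member, against 19.7% around every 100th CpG position of the table (22263 positions). The 50-base window of a member occurred once in the genome for 45.3% of members, against 92.2% of those positions. After C had been read as T, as bisulfite does, the shares were 30.9% and 89.6%. At the other end, 577 members had windows that occurred over 1000 times, up to 14713 times. Members lay in a RefSeq promoter in 7.94% of cases and in an exon in 3.28%, against 35.7% and 29.9% of the spaced positions, in an intron in 47.8% against 39.8%, and outside all 3 in 45.8% against 27.1%. A member was part of a TCGA site in 29.6% of cases and of a CCGG site in 11.2%, against 12.3% and 15.2%.

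When the loci were aligned with each other, most fell into 3 kinds of repeat. A family of 584 loci with 2172 members (64.8% of all) shared the B1-like unit of 170 bases, and 292 of these loci aligned directly to the 7SL gene Rn7s1, at a median of 85.3% identity over 60 bases. Another 150 loci with 458 members aligned to 1 copy on chromosome 1 with the layout of a LINE-1 element, at a median of 92.4% identity. That layout is a tandem array followed, in the same direction, by stop-free frames of 1152 and 3900 bases, and 15 of the 35 array loci had it. A further 31 loci with 240 members were satellite-like, 21 of them on chromosome 9, 4 on chromosome 14 and 3 on chromosome 2, and 12 of them repeated themselves at a spacing of 234 bases. The remaining 84 loci with 482 members belonged to no such class. These names rest on alignment alone, since no repeat annotation was used here.

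Methylation of the members was high and close to equal in both libraries. The mean level was 74.9% in E3 (SD 23.9 over members) and 74.9% in CT (SD 24.02), against 50.8% and 50.9% over all CpG positions. Members at 90% or above made up 33.5% in E3 and 34.4% in CT, those from 70% to 90% 36.5% and 35.3%, and those from 30% to 70% 21.3% and 21.6%. Levels under 10% made up 3.25% in E3 and 3.07% in CT. Across members the levels of both libraries had a Pearson correlation of 0.976, a description over 3352 positions that share reads, repeats and libraries.

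**Figure D1:**
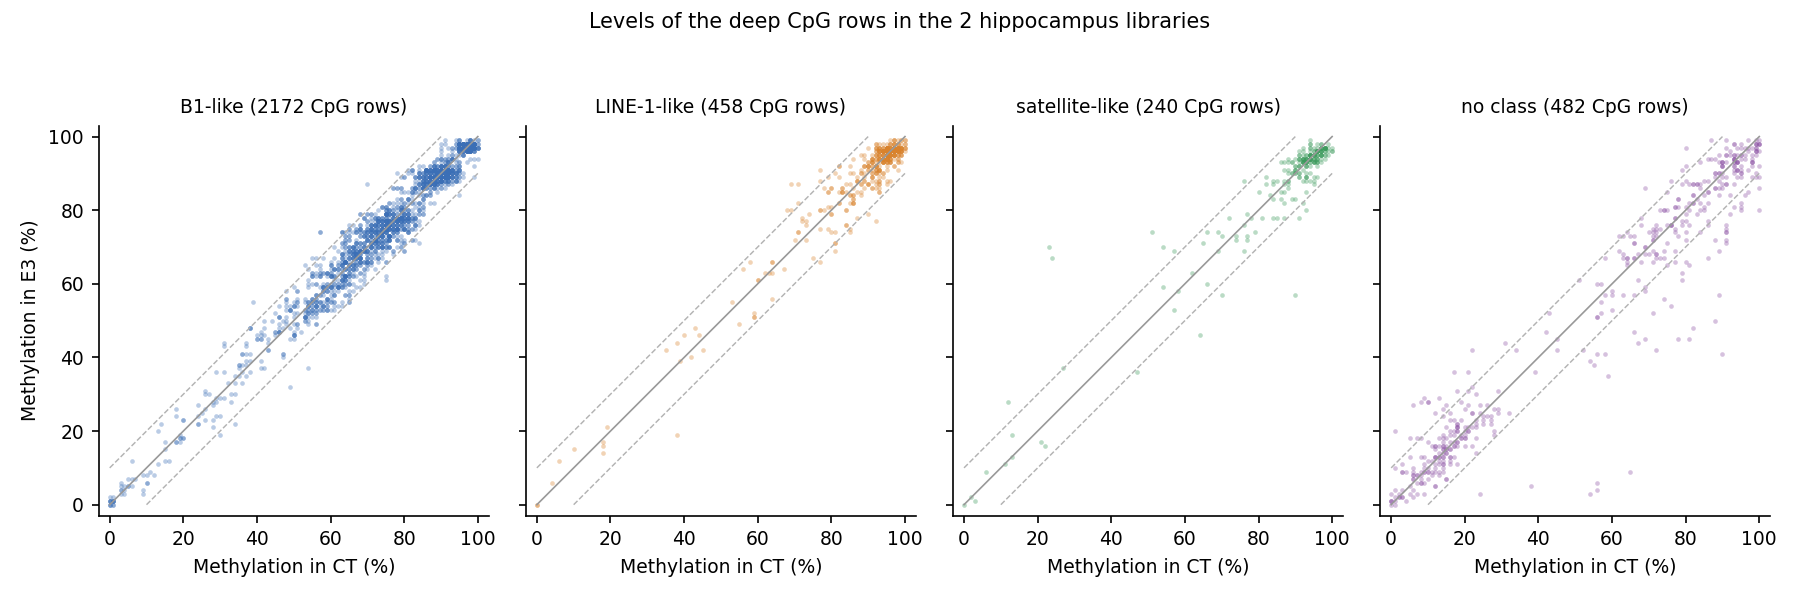
Methylation (%) of each deep CpG position in E3 (vertical axis) against CT (horizontal axis), in 4 panels for the 2172 B1-like, 458 LINE-1-like, 240 satellite-like and 482 unclassed positions. The solid line marks equal levels and the dashed lines a difference of 10 points; the panel of unclassed loci holds most points far below the line, and 2 satellite-like points stand far above it.

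The differences were small as well as precise. Members were selected on read number, and counting error shrinks with reads. The contrasts with all positions below therefore follow at least in part from the selection, and the rest was not tested. The median absolute difference was 2 points, against 6 points over all positions, and the SD of the difference was 5.24 points against 21.2. For 78.1% of members E3 and CT differed by under 5 points, which held for 45.8% of all positions. The 95% interval of the difference had a median half-width of 5.09 points for members and 25.01 points for all positions, and it lay within 10 points on both sides of 0 for 2370 members (70.7%), against 0.580% of all positions.

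By the call used for the series, a difference of 10 points with an unadjusted p under 0.05 in a 2-sided Fisher's exact test, 161 members (4.80%) differed, where 11.0% of all CpG positions did. The 10 points alone were reached by 4.92% of members and 40.0% of all positions. These shares too depend on depth, on which the members were selected. Of the 161, 77 (2.30%) were higher in E3 and 84 (2.51%) lower, against 6.19% and 4.84% of all positions. With Benjamini-Hochberg adjusted p-values over all positions, 91 members (2.71%) were called, against 3.35%. Split by level, 8.42% of members and 39.1% of all positions were called at a mean level of 30% to 70%, and 3.16% and 7.76% above it. Under 30% the order turned, with 9.09% of members and 5.15% of all positions. The called members lay in 85 loci, and 10 loci held 59 of them.

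**Figure D2:**
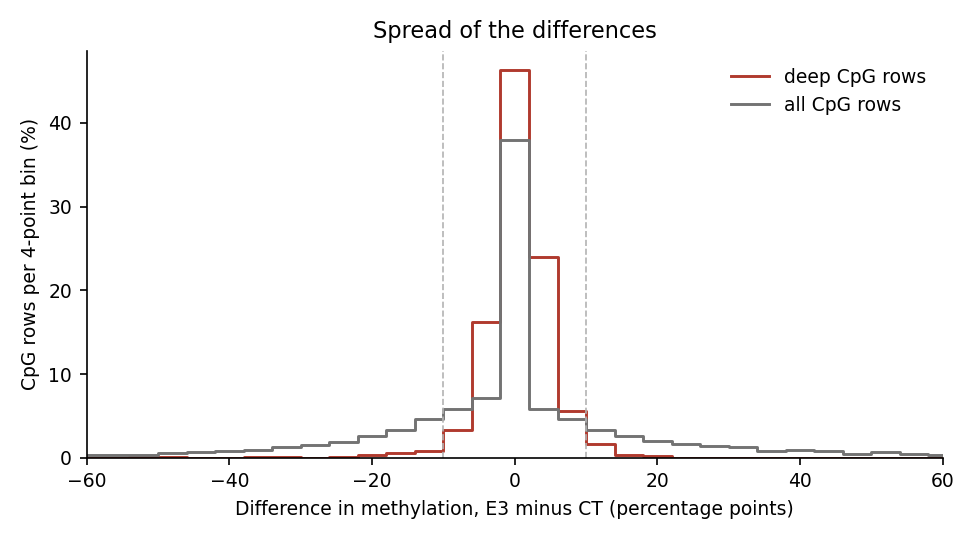
Difference in methylation (E3 minus CT, percentage points, horizontal axis) of the 3352 deep CpG positions and of all 2226271 positions, as the percent of positions per 4-point bin (vertical axis). The dashed lines mark 10 points. The deep positions, selected on read number, form a narrow peak at 0, with an SD of 5.24 points against 21.2.

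Calls thinned out with depth up to a point, a description only, since members were selected on depth and counting error shrinks with it. Of the 1037 members with 100 to under 150 reads in the shallower library 10.7% were called, of the 645 with 150 to under 200 reads 3.88%, and of the 277 with 500 to under 1000 reads 0.361%. Among the 140 members with 1000 or more reads the share was 5.71%, 5 higher and 3 lower. By copy number, 5.67% of the 1518 members whose window occurs once were called, 43 in each direction, 7.59% of the 540 with 2 to 10 copies, 11 higher and 30 lower, and 1.04% of the 577 whose window occurs over 1000 times.

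The reads of a locus, summed over its members, gave the same view. Of the 849 loci, 759 (89.4%) differed by under 5 points, 8 were higher by 10 points or more and 11 lower, and among those with 2 or more members the numbers were 4 and 4. The 10 loci with the most members included all 3 classes of repeat and differed by -1.58 to 0.36 points. The largest, a satellite-like stretch at chr2:98666262-98667326 with 49 members, stood at 89.7% in E3 and 90.5% in CT. Its 98652 CT reads and 145195 E3 reads set the difference at -0.85 points with an interval of -1.09 to -0.61. Rows of a locus share molecules, so such an interval is narrower than the true error.

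B1-like members had the lowest share of calls of the 3 repeat classes and of the unclassed loci. Their members averaged 75.9% in E3 (SD 19.2) and 75.7% in CT (SD 19.3), and 41 of 2172 were called (1.89%), 27 higher and 14 lower. Of the 584 loci, 537 differed by under 5 points. Among single members, 80.9% of the B1-like and 82.1% of the LINE-1-like ones did. Among the 20 genes with the most members, 13 held B1-like loci alone, and all but 2 of the members there lay in introns or promoters without a call. Nktr, a cyclophilin-related gene of natural killer cells, had 26 members in 4 intronic loci at 69.3% and 68.9%. Rpl38, a protein of the large ribosomal subunit, had 26 members near its start at 76.2% and 76.1%, and Ago3, an Argonaute of small RNA pathways, had 22 at 72.3% and 69.9%. The signalling adaptor Grb2 had 18 at 75.1% in both, and Prkdc, the catalytic subunit of the DNA-dependent protein kinase, had 18 at 70.2% and 70.2%. G6pdx, which makes NADPH, and its neighbour Ikbkg, a regulator of NF-κB signalling, share 20 members at 79.1% and 77.1%. Only Clpx, a mitochondrial protease subunit, had calls in this group of genes, 1 higher and 1 lower of 17.

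Levels followed the place of a CpG in the B1-like unit. Of the 2172 members, 2119 could be placed on the unit, and 2082 fell on 8 CpGs, read on both strands, each with 64 or more members per strand. At the CpG of base 39 the median level on the strand of the unit was 52.0% in E3 and 53.0% in CT over 86 members. At base 56 it was 58.0% and 58.9% over 90 members, and at bases 8, 16 and 20 it was 72.1% and 74.9%, 72.0% and 71.8%, and 74.95% and 73.8%. The CpGs that belong to an enzyme site of the unit stood higher. In the CCGG of base 4 the medians were 90.1% and 90.2%, in the TCGA of base 70 they were 89.1% and 89.3% over 313 members, and in the TCGA of base 135 they were 97.95% and 97.1%.

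The strands of a CpG of the unit could differ more than the libraries did. At base 135 the opposite strand had a median of 77.0% in E3 and 75.2% in CT over 170 members, and at base 4 it had 97.1% and 97.3%. At base 39 the opposite strand had 72.0% and 71.05% over 72 members, above the strand of the unit. No position of the unit had medians more than 3 points apart between E3 and CT, and the median differences lay between -2 and 1 points on all 16 position and strand combinations. The share of members that differed by under 5 points was 63.7% on the opposite strand of base 8 and 71.0% to 99.1% on the other combinations.

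The copies of the unit differ at these CpGs. Among 4663 copies of the unit on chromosome 19, the CpG of base 39 was still CG in 24.1% of the copies that reach it, and had become TG in 50.5%. At base 56 it was CG in 29.5%, and at bases 8, 16 and 20 in 64.8%, 39.5% and 44.98%. The site positions had CG in 52.2% (base 4), 46.8% (base 70) and 38.3% (base 135). Bisulfite turns an unmethylated C into T, so a read from a TG copy placed at a CG copy counts as unmethylated, and the part of this in the levels was not tested. Among B1-like members as a whole, those in a TCGA site averaged 88.9% and 88.2%, those in a CCGG site 89.5% and 89.4%, and the other 1126 averaged 63.6% and 63.7%.

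**Figure D3:**
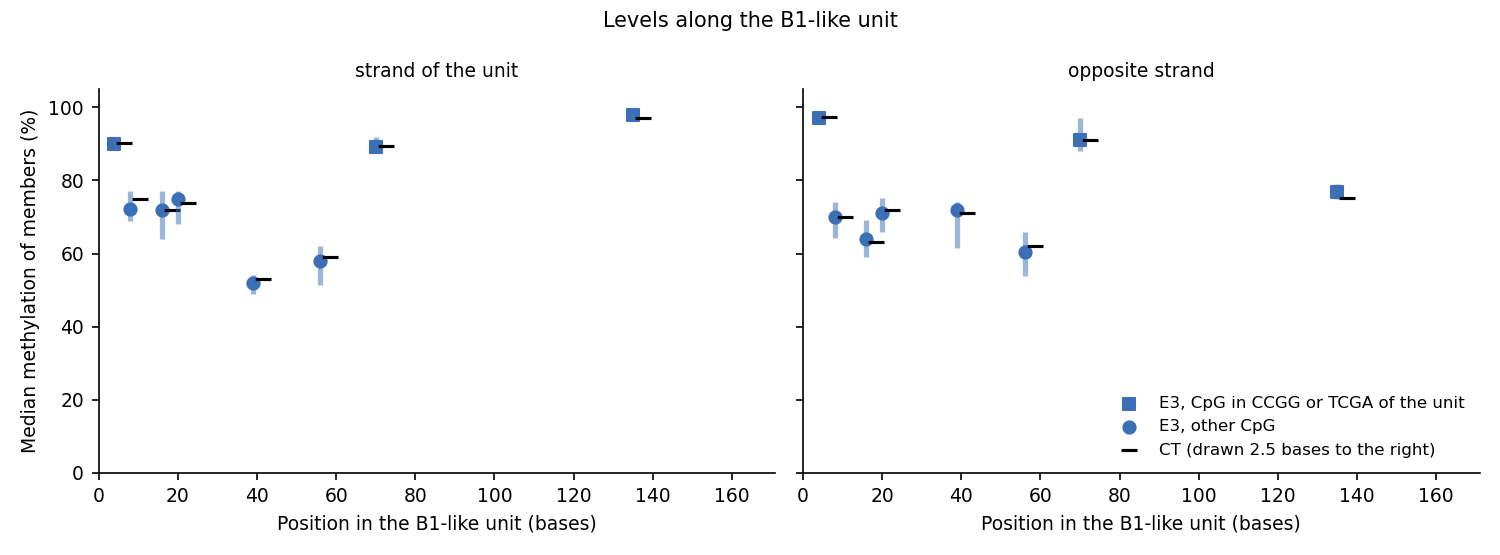
Median methylation (%, vertical axis) of members at each CpG of the B1-like unit (horizontal axis, bases from the start of the printed unit) on the strand of the unit and on the opposite strand. Squares and circles are E3 medians with quartiles as bars and black dashes are CT medians; CpGs in CCGG or TCGA stand at 77.0% to 97.95% and the others at 52.0% to 74.95% in E3.

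LINE-1-like members were the most methylated class, at 88.2% in E3 (SD 15.6) and 88.3% in CT (SD 15.7). They came from the start, the middle and the end of the element. The 286 members of the tandem array that precedes the frames, where the promoter of a LINE-1 lies, averaged 88.9% and 89.1%. The 77 members of the longer frame averaged 86.3% and 86.0%, and the 95 members beyond it 87.7% and 87.6%. No member was placed in the shorter frame. The copy number was the highest of all classes, with a median of 156.5 occurrences of the 50-base window and of 13893 in the family of 23 loci whose 35 members stood at 96.01% and 95.5%. The printed LINE-1-like stretch holds a window with 8207 occurrences, and its locus stood at 90.2% in both libraries.

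Of the 458 LINE-1-like members, 19 were called (4.15%), 10 higher and 9 lower. The smallest p among them was at position 142951279 of chromosome 2, in the longer frame, with 91% in E3 (874 reads, 95% Wilson interval 88.9% to 92.7%) and 77% in CT (260 reads, 71.4% to 81.6%). The Fisher's exact p was 1.2e-08 and the adjusted p 8.4e-06. The array locus with the most members, chr8:43791807-43792225, had 21 at 82.0% and 83.5%, with 2 called in each direction.

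Satellite-like members averaged 85.9% in E3 (SD 18.8) and 85.8% in CT (SD 19.8), and were the most deeply read class, with medians of 1333 and 376 reads. Of 240 members, 15 were called (6.25%), 8 higher and 7 lower. The array at chr9:3000341-3002155 had 34 members, of which 1 was called. Levels within an array could differ sharply between neighbours. At position 3000353 the level was 13% in both libraries, while 12 bases upstream it was 95% and 94%.

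The largest rise of all members lay in a satellite-like locus on chromosome 2, at the CpG in capitals in the printed stretch. At position 98662601 the plus strand had 70% in E3 (3201 reads, Wilson interval 68.4% to 71.6%) and 23% in CT (3194 reads, 21.6% to 24.5%). The minus strand of the same CpG, at 98662602, had 67% (4727 reads) and 24% (4527 reads). The differences were 47 points (95% interval 44.8 to 49.1) and 43 points (41.2 to 44.8), both with a Fisher's exact p at or under 1e-300, the smallest value written. The 12 other members of the locus, within 300 bases, differed by -6 to 4 points, and the locus stood at 85.4% in E3 and 76.0% in CT over its 14 members. Cytosines outside CpG in the same locus went both ways. The CHH position 98662666 on the plus strand had 57.0% in E3 (3026 reads) and 22.0% in CT (3376 reads), with a Fisher's exact p of 3.9e-185. The CHH position 98662762 on the minus strand had 6.0% in E3 (4454 reads) and 11.0% in CT (4951 reads). Its Fisher's exact p was 2.6e-18. The window of the CpG at 98662601 occurred once in the reference.

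Other called satellite CpGs went both ways within 1 array. At position 3001466 of chromosome 9, in the other printed satellite stretch, E3 had 57% (332 reads) and CT 90% (620 reads), a fall of 33 points with a Fisher's exact p of 4.8e-31. CT had more reads than E3 there, while position 3001454, on the same strand, had 7175 and 1711 reads and stood at 93% and 94%. At 3020494 E3 had 82% and CT 92% over 7201 and 7721 reads (interval of the difference -11.1 to -8.92 points). In the same locus, 234 bases upstream, the plus strand at 3020260 had 28% in E3 and 12% in CT over 871 and 230 reads. Further rises were 74% against 51% at 3024473, 69% against 57% at 3026781, and 88% against 76% at 35305418 of chromosome 9, and a further fall was 80% against 93% at 98667168 of chromosome 2.

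The unclassed loci held 86 of the 161 calls. Of their 482 members 17.8% were called, 32 higher and 54 lower, while the 3 repeat classes stood at 1.89% to 6.25%. Their mean levels over members were 52.2% in E3 (SD 34.04) and 53.7% in CT (SD 35.1). Summed over reads the order was the other, 45.2% in E3 and 33.0% in CT. Such a sum weights loci by depth, and the weights differed between the libraries, so it is not a like comparison of levels. The locus chr11:109011881-109011929, at 16.3% and 17.2%, had 44606 reads in E3 and 71960 in CT. The windows of the unclassed members were soft-masked over a mean of 28.2% of their bases. Of these members 56.4% had a window that occurs once, against 12.2% to 50.6% in the 3 repeat classes. When the counts were limited to the 3 repeat classes, 45 members were called higher and 30 lower.

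The falls gathered at Mid1 on chromosome X and Erdr1 on chromosome Y. Mid1, a ubiquitin ligase that binds microtubules, straddles the edge of the region that the mouse X and Y chromosomes share, and Erdr1 lies within that region. Mid1 had 33 members in 5 loci at a mean of 68.8% in E3 and 80.8% in CT, with 14 called lower and 2 higher. Erdr1, named as a regulator of erythroid differentiation, had 23 members in 2 loci at 54.2% and 71.9%, with 17 called lower and none higher. Positions on chromosome Y are not given here.

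In the printed Mid1 intron, chrX:169986943-169986987, the 4 members had 4%, 6%, 3% and 3% in E3 (133, 135, 136 and 160 reads). In CT they had 56%, 56%, 54% and 24% (178, 179, 180 and 211 reads). The summed levels were 3.90% and 46.5%, a difference of -42.6 points with an interval of -46.4 to -38.6. This was the largest fall of a locus with 2 or more members, and its members share reads, so they are not replicates. The windows of these members occurred a median of 3.5 times in the reference. The stretch matched the transcript Gm45844 at 98.2% over 109 bases, so its reads cannot be credited to Mid1 alone. The smallest Fisher's exact p was 1.9e-25 (adjusted 2.5e-20). Another Mid1 locus, chrX:169980375-169980556, had 8 members at 53.2% in E3 and 70.8% in CT, 5 of them called lower. In the promoter shared by Mid1 and G530011O06Rik, position 169979609 had 9% (116 reads) and 65% (124 reads), the largest fall of all members. The Mid1 locus at chrX:169984760-169985124, in contrast, had 15 members at 92.3% and 93.03%, 2 called higher and 3 lower. All 5 Mid1 loci and both Erdr1 loci had more reads in CT than in E3.

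Calls were more frequent where CT had more reads, which held for all Mid1 and Erdr1 loci. The median member had 3.51 times as many reads in E3 as in CT, and 16 loci went the other way. Of the 137 members with more CT reads, 31.4% were called, 12 higher and 31 lower, against 3.67% of the other 3215. Without the loci that had more reads in CT, 62 members were called higher and 53 lower. The lower calls removed this way all lay in the Mid1 and Erdr1 loci, so this counts those falls again. The part of copy number or of read number in these differences was not tested.

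**Figure D4:**
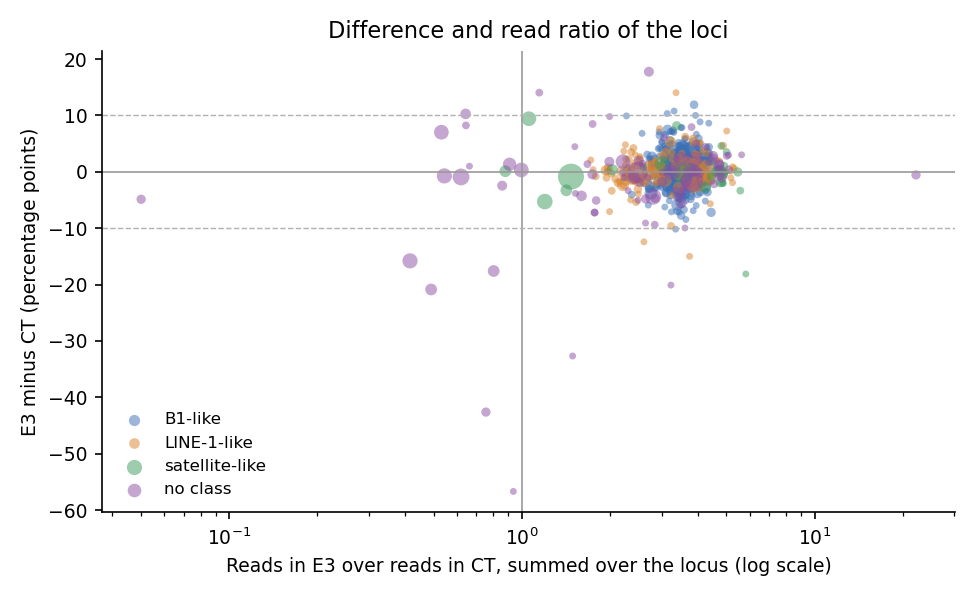
Difference in methylation of the 849 loci (E3 minus CT, percentage points, vertical axis) against reads in E3 over reads in CT (horizontal axis, log scale), with points sized by the number of members and coloured by class. The vertical line marks equal reads and the dashed lines 10 points; most loci lie near a ratio of 3.51 within 5 points of 0, and the unclassed loci at low ratios spread from -56.7 to 10.3 points.

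Falls were also seen at single CpGs outside those genes. In an exon of Slitrk1, a synaptic membrane protein of neurons, position 108913026 of chromosome 14 had 5% in E3 (158 reads, interval 2.59% to 9.67%) and 38% in CT (106 reads, 29.1% to 47.2%), with a Fisher's exact p of 1.6e-11. In an intron of Pisd-ps1, a pseudogene of phosphatidylserine decarboxylase, position 3127214 of chromosome 11 had 69% (1069 reads) and 89% (331 reads), with a p of 1.5e-14. Both windows occurred once in the reference. Tmem267, a membrane protein gene, had 17 members at its start in chr13:119488862-119489045 at 72.1% and 76.6%, with 7 called lower and none higher.

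A group of loci stood low in both libraries. Under 35% in each were 29 loci with 196 members, at a mean of 16.3% in E3 (SD 10.2) and 14.9% in CT (SD 9.67). Some were among the most deeply read loci. The locus chr16:57391375-57391517 in introns of Cmss1 and Filip1l had 66074 and 66343 reads over 14 members at 20.5% and 20.2%, and that at chr11:109011881-109011929 had 44606 and 71960 reads over 19 members at 16.3% and 17.2%. The 30 members in an intron of Zc3h7a, a zinc finger gene, stood at 10.5% and 10.6%, and the 22 of chr13:9834319-9834469 at 17.6% and 17.5%. No member of the chromosome 11, Zc3h7a or chromosome 13 locus was called. Of all 196 members, 18 were called higher (9.18% called in all) and none lower, in 6 loci. Over all CpG positions 11.0% were called, 6.19% higher and 4.84% lower. Among all positions with a mean level under 30%, nearer to the levels of these loci, 5.15% were called. The loci on chromosomes 8, 12 and 14 described below held 5, 5 and 4 of the 18.

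Some of the low loci matched the mitochondrial genome or the ribosomal precursor gene. The locus chr1:24612737-24612997 matched the mitochondrial gene mt-Nd3 at 100% identity over 326 bases. Its 4 members had 5%, 2%, 1% and 6% in E3 and 5%, 3%, 1% and 7% in CT, and were read 17134 times in E3 and 772 times in CT, the widest excess of E3. None of them was called. The locus chr6:3201422-3201540 shared 31.2% of its 31-base strings with the Rn45s interval and had 11 members at 21.9% and 20.5%.

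The low loci also held rises. At chr8:15519895-15519946, in no RefSeq gene, the 5 members had 28%, 18%, 27%, 28% and 29% in E3 (273 to 291 reads). In CT they had 10%, 8%, 6%, 8% and 9% (100 to 110 reads). Every E3 value was above every CT value, all 5 were called, and the summed levels were 25.9% and 8.11%, a difference of 17.8 points with an interval of 14.3 to 20.9. The smallest Fisher's exact p was 7.1e-07 (adjusted 2.0e-04) and the largest 0.0187 (adjusted 0.247).

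That locus aligned with 4 others, and the printed stretch reads as sequence of the large ribosomal subunit RNA, a reading from general knowledge with no annotation used. In the family, chr14:104715803-104715869 in an intron of D130009I18Rik had 6 members at 26.9% in E3 and 16.6% in CT, 4 of them called higher. The chromosome 16 locus in Cmss1 and Filip1l had 1 of 14 called, position 57391492 with 18% (3857 reads) and 5% (2263 reads) and a Fisher's exact p of 1.0e-53. The other pair, on chromosomes 12 and 18, had 12.5% and 22.1% in E3 and 16.7% and 20.3% in CT, with no call. The 5 loci of the family thus differed in direction.

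The family held 10 of the 77 members called higher, and 67 lay outside it. In an intron of Gphn, which anchors inhibitory synapse receptors, chr12:78350907-78351156 had 14 members at 18.4% and 11.4%, 5 of them called higher, in a stretch that matched the Lars2 transcript at 97.5% over 244 bases. In an intron of Tasor2, a B1-like locus at chr13:3587321-3587558 had 82.4% and 70.5% over 3 members, 2 of them called. At chr2:177551855-177551863 the 2 members had 97% and 92% in E3 and 80% and 80% in CT, over 117 and 102 reads. The 10 loci with the largest rises ended at 7.43 points, in 6 members of Fxr2, a relative of the fragile X protein, and the 10 with the largest falls at -7.19 points, in 4 members on chromosome 16.

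**Figure D5:**
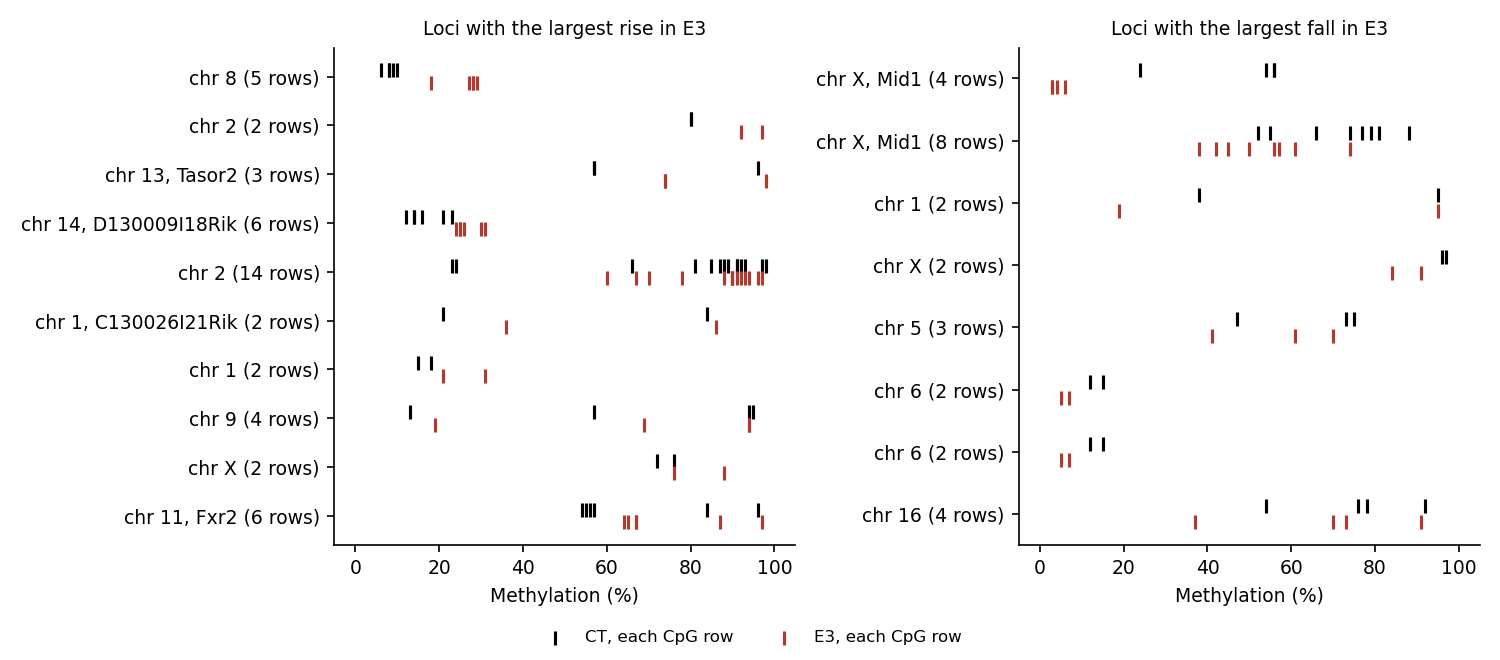
Methylation (%, horizontal axis) of each member CpG in CT (black) and E3 (red) for the loci with 2 or more members and the largest rise (left, 10 loci) or fall (right, 8 loci, with those on chromosome Y not drawn). The loci were picked for their differences, and members of a locus share reads. The chromosome 8 locus and the upper Mid1 locus differ by 10 points or more at every member. The chromosome 2 locus with 14 members does so at 1 CpG alone, read on both strands.

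Sfi1, a centrosome protein gene, had the most members of any gene, 53 in 3 loci, at 69.3% in E3 and 70.1% in CT. Its main locus, chr11:3192949-3193597, spans the promoter and an exon and held 38 of them at 63.5% and 65.0%, with 2 called higher and 5 lower. The same stretch matched the antisense transcript Gm12735 at 100% over 182 bases.

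Where both strands of a CpG were members (401 CpGs), they were called on both for 8 CpGs, always in the same direction, and on only 1 for 31. The levels of the strands differed by a median of 5.97 points in E3 and 6.22 in CT, more than the median difference of 2 points between libraries.

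Cytosines outside CpG were also read in these loci, and the same minimum depth was applied to them. Of CHG positions (H is A, C or T) with 100 or more reads in both, 4496 lay in the loci, at a mean of 2.81% in E3 and 2.99% in CT, against 2.22% and 2.30% over all CHG positions. The 8473 CHH positions stood at 3.23% and 3.38%, against 2.47% and 2.57%. Satellite-like loci were the highest class in both contexts, with 4.42% and 4.39% at CHG and 5.02% and 4.77% at CHH. Over 10% in both libraries were 29 CHG and 182 CHH positions. By the same call, 9 CHG positions differed (0.200%, against 3.43% of all CHG positions), 1 higher and the rest lower. Of the CHH positions 16 differed (0.189%, against 3.69% of all), 10 of them higher.

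In the frontal cortex, the deposited tables list called sites alone and give no depth. A cortex value existed for 4 of the 2951 CpGs with a member (0.136%), against 0.386% of all 1722586 hippocampus CpGs. At the chromosome 8 locus, 3 of its 5 members had one. Position 15519939 stood at 33.5% in cortex E3 and 18.5% in cortex CT, position 15519942 at 33.8% and 20%, and position 15519946 at 37.5% and 24.4%. A neighbour at 15519919 had 30.8% and 17.2%. These were 13.1 to 15 points higher in E3, where the same CpGs of the hippocampus were 20 to 21 points higher. The fourth CpG was in Sfi1, position 3193596 of chromosome 11, at 27.2% in cortex E3 and 43.4% in cortex CT. In the hippocampus it was higher in E3, with 61% and 51% on the plus strand (1146 and 209 reads) and 42% and 22% on the minus strand (317 and 104 reads).

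Among other positions of the loci, the low locus on chromosome 6 had 1 cortex CpG, at 29.1% in E3 and 42.3% in CT. The B1-like loci had cortex CpGs at 95.8% against 0% and 50.0% against 0%, and 2 cortex CHH positions at 47.4% against 0% and 27.8% against 0%. With the depth of these values unknown, no test was made.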

How the data were processed

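Hippocampus DNA of female offspring was measured in 1 library from E3-exposed and 1 from vehicle-exposed (CT) litters. According to the submitters' processing notes, the authors used TrimGalore 0.6.4, FastQC 0.11.8, Bismark 0.19.0 on mm10 and MethylDackel 0.4.0. For each cytosine the deposited tables give a read count per library and a methylation fraction rounded to 2 decimals, so methylated reads were rebuilt as fraction times count. The authors' cortex tables hold the methylation level as a fraction for called sites alone, with no depth. Columns of the authors' own comparisons (differences and p-values) were not used.

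Positions with 5 or more reads in both libraries entered a 2-sided Fisher's exact test, and a call needed 10 points and an unadjusted p under 0.05. The test was computed with a purpose-written function (numba 0.67.0) and compared with scipy 1.17.1 on simulated counts. Benjamini-Hochberg adjustment covered all 2226271 positions. Intervals are 95% Wilson (levels) or Newcombe (differences) and cover counting error only, since PCR reads are not independent molecules and depth sets their width. The test was tested on simulated data. The 685 deep positions of the Rn45s interval were left out. Members within 500 bases formed loci, whose windows with 100 bases on each side were linked by BLAST+ 2.17.0 at 80% identity over 100 bases. Copies are exact occurrences of a 50-base window in 66 reference sequences. Genes are from RefSeq on GRCm38 (promoter, 1000 bases on each side of a start), transcripts from GENCODE, and printed sequences from the GRCm38 reference.

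Named were the 10 loci with the most members, the 10 with 2 or more members and the largest rise or fall, the 10 members with the smallest p in each direction, loci with cortex values, the 20 genes with the most members and 5 positions on each side of the depth threshold. The low loci, single Slitrk1 and Pisd-ps1 CpGs and sequence classes were picked with their values in view. The members and lists were chosen with earlier results of these data known. Alternatives changed the depth minimum, the thresholds, the counts, the strands, the merging distance and the chromosomes. The values of 1 locus are not reported here.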

Additional observations from a re-analysis of the deposited data

Results flagged for a closer look

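At the Sfi1 CpG at position 3193596 of chromosome 11, the tissues moved in opposite directions. E3 minus CT was -16.2 points in the cortex, and in the hippocampus 10 points on the plus strand and 20 points on the minus strand. The difference between the tissues was not tested, because the cortex values come without read numbers.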

How the results depend on the processing

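No paired analysis was possible because each condition had 1 hippocampus library, and for the same reason no library could be left out. Against 77 members called higher and 84 lower, an adjusted p under 0.05 left 35 higher, and a difference of 25 points left 2 and 13. Minimum depths of 50, 200 and 500 reads gave 578 and 705 of 8876, 16 and 9 of 1670, and 6 and 3 of 417. Counts divided by 4 gave 14 and 27, autosomes alone 49 lower, and members whose window occurs once 43 and 43. Of the alternatives chosen after seeing the data, the 3 repeat classes alone gave 45 and 30. Leaving out the loci with more reads in CT, all Mid1 and Erdr1 loci among them, gave 53 lower. Over all 849 loci, 8 were higher and 11 lower by 10 points. Among the 117 loci with members on both strands, 1 was higher and 4 lower on the plus strand alone and 1 and 2 on the minus strand alone. The mean level was 73.15% in E3 and 67.92% in CT over reads, and 79.83% and 79.81% over loci. The mean over reads weights positions by depth, and these weights differed between the libraries, so it does not compare the same mix of positions. The balance of calls, with more lower than higher, turned to more higher than lower on autosomes alone (70 higher), at 200 and 500 reads, without the loci with more reads in CT (62 higher) and in the repeat classes. Of the 30 named loci, 7 had the other sign on 1 strand alone, all with a difference of at most 1.58 points. Of the 20 members named by p, 20 kept their call with counts divided by 4 and with the adjusted p, and 19 when the fractions were moved by 0.005 toward each other. They were named for the smallest p, so keeping the call under the adjusted p was set by that choice. The divided counts kept the original differences and changed the p alone. Most of these alternatives hold fewer or more positions or reads by construction, and other causes were not tested.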
